A study of Saccharomyces cerevisiae with 16 samples.

Results

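Untreated budding yeast arrested in G1 were compared between the esa1-L254P mutant and wild type on 2 of the 16 dual-colour expression arrays of the series, chosen by the strain pair, phase and lack of treatment given in their titles. Both strains were of the W303 background, and the mutant carried esa1-L254P::NatRMX4. Cells of both strains were held in alpha factor for 1 h and then kept for a further 1 h without the alkylating agent methyl methanesulfonate (MMS). PolyA RNA of the mutant was labelled with Cy5 on array 1 and with Cy3 on array 2, so the dyes were exchanged. Another 3 pairs of arrays made the same strain comparison and serve here for contrast: G1 cells given 0.05% MMS for 1 h, untreated S-phase cells that had been arrested for 2 h and released, and S-phase cells given MMS. The remaining arrays compared MMS with no treatment within a strain. The labels give neither a growth temperature nor the markers of the strains, and they do not say whether arrays 1 and 2 came from separate cultures, so the p-values below measure only the spread between arrays, which may be technical.

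Esa1 is the catalytic subunit of NuA4, an essential complex that acetylates nucleosomal histones H4 and H2A and is recruited by activators to promoters, those of ribosomal protein genes among them. It shares subunits with SWR1, the remodeller that deposits the histone variant H2A.Z. Alpha factor is the mating pheromone to which MATa cells respond by arresting in G1 and inducing mating genes.

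The deposited values were log ratios, taken as log2 of Cy5 over Cy3, and array 2 was turned so that a positive value means higher in esa1-L254P. The log base and the direction are not stated in the sources used here. The direction is likely because MAG1, a DNA glycosylase gene that alkylation induces, was then higher with MMS in all 4 comparisons of MMS with no treatment, by 0.86 and 1.08 log2 in esa1-L254P and wild-type G1 cells and by 1.08 and 1.09 in esa1-L254P and wild-type S cells. Of 2 other damage-inducible genes examined, both gave this direction in S cells but not in G1 cells. RNR3 was higher with MMS by 0.99 and 1.22 in esa1-L254P and wild-type S cells and HUG1 by 0.69 and 1.03. In G1 cells RNR3 was at -0.0011 in esa1-L254P and -0.23 in wild type (adjusted p = 0.0387 by limma), and HUG1, at 0.07 and 0.03, was not called. Rows of the table followed no given order and were assigned to spots by a search for the ordering at which duplicate spots of a gene agree, and every gene name rests on that ordering. In genes left out of the search, duplicate spots correlated at 0.938 on array 1 and 0.899 on array 2. Spots of a gene were averaged, which gave 4073 named genes. The files hold ratios and no intensities, so the level of a gene and its distance from background are unknown, and a lower number of transcripts per cell cannot be told apart from fewer cells expressing it.

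A gene is called here if limma, fitted over all 16 arrays with 1 coefficient per comparison, gave a Benjamini-Hochberg adjusted p under 0.05 over the 4073 genes. In untreated G1, 897 genes were called, which is 22.0% of those tested. Of these, 555 rose in esa1-L254P (13.6%) and 342 fell (8.40%). The changes were small: the median log2 ratio was 0.53 among genes that rose and -0.48 among genes that fell, and 12 genes rose and 4 fell by 2-fold or more. All 897 lay on the same side of 0 on both arrays, as did 68.5% of all genes. Across all 4073 genes the 2 arrays, once turned, correlated at 0.16, a description of arrays that differ in dye orientation and, as far as the labels say, may share RNA. With replicate number, which is the dye orientation, as a block, 1784 genes were called (1003 or 24.6% up, 781 or 19.2% down), and all 897 were among them. Counts of list members below are set against these shares in the blocked fit and against 13.6% up and 8.40% down otherwise. Without replicate 1, 328 genes were called, 321 of them among the 897, and without replicate 2, 317, of which 312 were. In these fits untreated G1 has 1 array in 1 dye orientation and is assumed to vary like the other comparisons, so a call kept there is no check on the dye. From the 2 arrays alone, which leave 1 residual degree of freedom, limma called 0 genes, with 859 at an unadjusted p under 0.05.

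**Figure D1:**
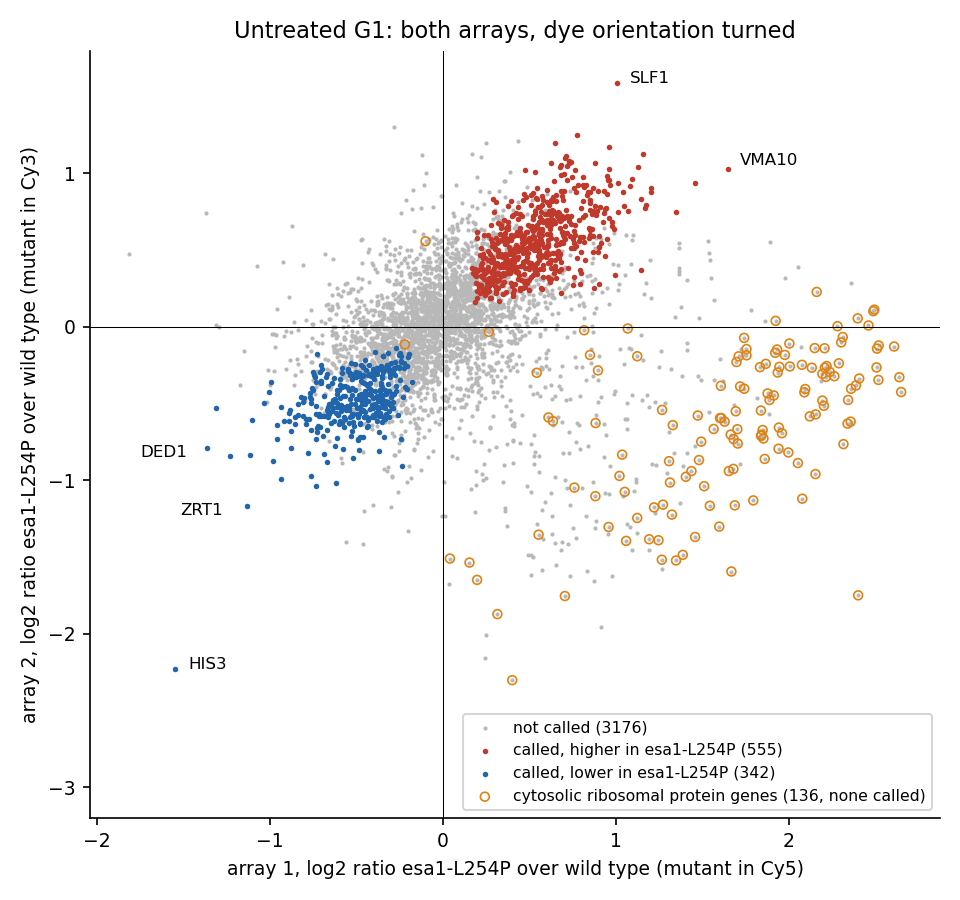
Each point is a gene, with its log2 ratio of esa1-L254P over wild type on array 1 (mutant in Cy5) against array 2 (mutant in Cy3). The 555 called genes that rose lie at the upper right and the 342 that fell at the lower left, while most of the 136 cytosolic ribosomal protein genes (open circles) lie to the right of 0 on array 1 and below 0 on array 2.

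ESA1 itself, which carries the mutation, rose. Its log2 ratio was 0.76 on array 1 and 0.60 on array 2, a mean of 0.68 ± 0.07 (SE), or 1.60-fold (limma, Benjamini-Hochberg adjusted p = 0.000467). The allele is a substitution and not a deletion, so the level of its transcript does not check the labels. DGA1, a diacylglycerol acyltransferase gene next to ESA1 on chromosome XV, had log2 ratios of 0.11 and -0.04 and was not called. PUS7, on the other side, was not analysed here. In untreated S cells ESA1 had a log2 ratio of 0.10 (adjusted p = 0.391 by limma) and in MMS-treated G1 cells of 0.25 (adjusted p = 0.0551). With the replicate block the latter was called (adjusted p = 0.0123 by limma). The ratio in untreated G1 exceeded that in untreated S by 0.58 (limma contrast, adjusted p = 0.00173) and that in MMS-treated G1 by 0.43 (adjusted p = 0.012).

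Marker genes commonly used in W303-type strains differed between mutant and wild type. HIS3, a histidine biosynthesis gene, had log2 ratios of -1.55 and -2.23 in untreated G1 and was 0.27 of the wild-type level on average (-1.89 ± 0.22 SE, adjusted p = 0.000501 by limma). ADE2, an adenine biosynthesis gene, had log2 ratios of 0.64 and 0.85, a mean of 0.74 ± 0.15 (adjusted p = 0.00596 by limma). Both genes kept their direction in the other strain comparisons: HIS3 was at -2.45 in MMS-treated G1 and -2.73 in untreated S, and ADE2 at 1.78 and 1.42. In MMS-treated S, HIS3 was at -1.11 and not called (adjusted p = 0.129 by limma), and ADE2 was at 1.44 (adjusted p = 0.00931). Without replicate 2, ADE2 was at 0.64 and not called (adjusted p = 0.111 by limma). Neither LEU2, TRP1, URA3, CAN1 nor HO was called, with log2 ratios from -0.44 for LEU2 to 0.24 for CAN1. The strains' genotypes at these loci are not in the labels, so whether these 2 ratios follow from the allele or from another difference between the strains cannot be told apart.

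The largest increases included genes of membrane traffic, the vacuolar proton pump, mitochondrial ribosomes and RNA metabolism. VMA10, a stalk subunit of the vacuolar ATPase, had log2 ratios of 1.65 and 1.03, and SLF1, an RNA-binding protein with a La motif, had 1.01 and 1.59. Their means were 1.34 ± 0.28 (2.53-fold, adjusted p = 0.00834 by limma) and 1.30 ± 0.26 (2.46-fold, adjusted p = 0.00592). Both arrays thus lay at 1 or above for these genes, although they differed from each other by more than 0.5.

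SNF7, VPS20 and DID2 encode proteins of ESCRT-III, the complex that cuts vesicles off into the endosome, which was not among the lists counted here. SNF7 had log2 ratios of 1.46 and 0.94, with a mean of 1.20 ± 0.16 (adjusted p = 0.000932 by limma). VPS20 had 0.96 and 1.18, with a mean of 1.07 ± 0.11 (adjusted p = 0.000467). DID2 had 1.17 and 0.79, with a mean of 0.98 ± 0.12 (adjusted p = 0.000711). The vacuolar ATPase assembly factor VMA22 also rose, by 0.99 on average.

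The other genes of this group served different processes. SPO12, a regulator of mitotic exit, had log2 ratios of 1.16 and 1.13 and rose 2.21-fold (1.14 ± 0.15, adjusted p = 0.00075 by limma). BUR6, a subunit of the transcription repressor NC2, had 1.10 and 0.96, and CWC15, a splicing factor, had 0.96 and 1.03. The remaining ones were SRP21 of the signal recognition particle (1.05), NOP15 of the large ribosomal subunit assembly pathway (1.05), FMC1, an assembly factor of mitochondrial ATP synthase (1.00), the mitochondrial ribosomal protein genes MRPL24 (1.08) and MRPS28 (1.01), and HMRA1 (1.04), described below. For these 15 genes the array values lay between 0.75 and 1.65. Without replicate 1, 12 of the 15 were called, and without replicate 2, 13.

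**Figure D2:**
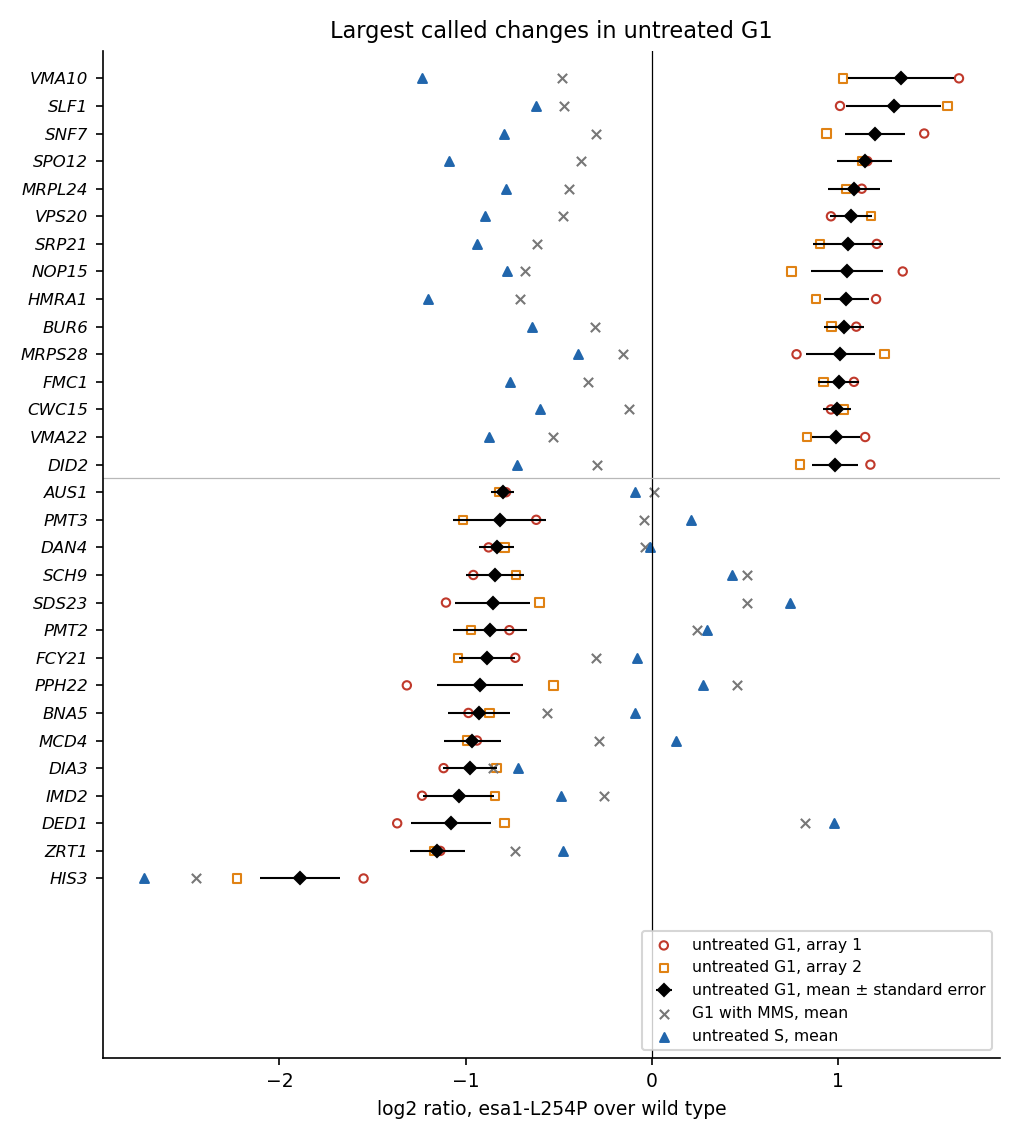
Log2 ratio of esa1-L254P over wild type for the 15 called genes with the largest increase and the 15 with the largest decrease. Open symbols are the 2 arrays of untreated G1, diamonds their mean with its standard error, crosses the mean in MMS-treated G1 and triangles the mean in untreated S. All 15 genes that rose lie below 0 in untreated S.

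The largest decreases after HIS3 included transporters, glycosylation enzymes and growth regulators. ZRT1, the high-affinity zinc transporter, had log2 ratios of -1.14 and -1.17 and fell to 0.45 of the wild-type level (-1.15 ± 0.15, adjusted p = 0.00075 by limma). DED1, a DEAD-box helicase of translation initiation, had -1.37 and -0.79 (-1.08 ± 0.21, adjusted p = 0.00616). IMD2, an IMP dehydrogenase of guanine nucleotide synthesis, had -1.23 and -0.84 (-1.04 ± 0.19, adjusted p = 0.00398). ZRT1 was nearly the same on both arrays, whereas DED1 was lower on array 1 than on array 2.

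MCD4, which adds ethanolamine phosphate to GPI anchors, had log2 ratios of -0.94 and -0.99. The protein O-mannosyltransferase genes PMT2 and PMT3 had means of -0.87 ± 0.20 and -0.82 ± 0.25 (adjusted p = 0.0118 and 0.0427 by limma). With the trend on gene length removed, PMT3 was at -0.80 and no longer called (adjusted p = 0.0715). With the replicate block as well, PMT3 was called (adjusted p = 0.000769 by limma). SCH9, a growth-control kinase downstream of TORC1, had log2 ratios of -0.96 and -0.73, and PPH22, a catalytic subunit of protein phosphatase 2A, had -1.32 and -0.53. PPH22 differed most between the arrays in this set.

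The others were the phosphatase-like DIA3 (-0.98), the kynureninase of NAD synthesis BNA5 (-0.93), the purine-cytosine permease homologue FCY21 (-0.89), SDS23 (-0.86), and DAN4 (-0.83) and AUS1 (-0.80), which encode a cell wall mannoprotein and a sterol importer of anaerobic growth. AUS1 had the smallest standard error of the set, 0.06, with -0.78 and -0.82 on the arrays (adjusted p = 0.000172 by limma). Of the 15 genes that fell most, HIS3 included, 7 were called without replicate 1 and 12 without replicate 2.

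Genes of NuA4 and of related chromatin complexes contributed more increases than decreases. Of 12 NuA4 subunit genes measured, 4 rose and 0 fell, with a median log2 ratio of 0.31, against 13.6% of all genes that rose and a median of 0.03 over all genes. In the blocked fit 7 rose, and without replicate 1 or replicate 2, 2 did. Beside ESA1 they were YNG2 (0.81 and 0.72, mean 0.76 ± 0.07, adjusted p = 0.000445 by limma), EAF6 (0.55 and 0.52) and YAF9 (0.38 and 0.40), the last of which is shared with SWR1. These 3 lie in the complex with Esa1 and had nearly equal values on both arrays.

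Of 20 genes of the SWR1 and INO80 chromatin remodellers, 7 rose and 0 fell, with a median of 0.27. Without replicate 1, 4 rose, and without replicate 2, 4. The leading ones were all INO80 subunit genes. IES1 had log2 ratios of 0.68 and 1.04, and IES2 had 0.76 and 0.90, with means of 0.86 ± 0.10 and 0.83 ± 0.10 (adjusted p = 0.0006 and 0.00066 by limma). IES4 and ARP5 averaged 0.69 and 0.62. With the trend on gene length removed, IES4, EAF6 and YAF9, which are short, were at 0.38, 0.22 and 0.24 and were not called. IES1, IES2, ARP5, YNG2 and ESA1 were called there. With the replicate block as well, IES4 and YAF9 were called (adjusted p = 0.00497 and 0.0348 by limma) and EAF6 was not (adjusted p = 0.143).

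Of 24 genes of SAGA and further acetyltransferase complexes, 5 rose (20.8%) and 0 fell, and the median was 0.03, as over all genes. They included the SAGA subunit gene NGG1 (0.68 and 0.70, mean 0.69 ± 0.08, adjusted p = 0.000501 by limma), the SAS complex gene SAS4 (0.57), and SAS3 (0.53) and YNG1 (0.35) of NuA3. When replicate 1 was left out, 2 genes of the list were called, and when replicate 2 was, 1 was. YNG1 was not called with the trend on gene length removed (0.19, adjusted p = 0.0844). With the replicate block as well, YNG1 was called (adjusted p = 0.0339 by limma).

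Of 29 histone deacetylase and silencing genes, 9 rose and 2 fell, with a median of 0.17. Under the replicate block 13 rose and 7 fell. Leaving out replicate 1, 4 rose and 2 fell, and leaving out replicate 2, 1 rose and 2 fell. RCO1 (0.58 and 0.83) and CTI6 (0.64 and 0.69) of the Rpd3 complexes, SET3 (0.65 and 0.68) and HDA2 (0.54 and 0.75) rose most, by 0.64 to 0.70 on average. The 2 that fell, named after their values were seen, were HOS2, the deacetylase of the Set3 complex (-0.71 and -0.57, adjusted p = 0.00161 by limma), and SIR2, the deacetylase of silent chromatin (-0.64 and -0.53, adjusted p = 0.00107). Both were called with either replicate left out.

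Histone genes, which are short, had a median of 0.50 over 11 genes, with 0.72 on array 1 and 0.30 on array 2, and 0.22 with the trend on gene length removed. CSE4, the centromeric H3 variant, was called up (0.72 and 0.95, mean 0.84 ± 0.10, adjusted p = 0.000615 by limma), and HHO1, the linker histone, was called down (-0.58 and -0.45, adjusted p = 0.0165). Without replicate 1 or replicate 2, HHO1 was not called (adjusted p = 0.183 and 0.101).

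Mating and mating-type genes moved in parts. Of 39 pheromone-induced mating genes, 3 rose and 0 fell, below the 13.6% over all genes, and their median was 0.21. They were KAR4, a transcription factor of nuclear fusion (0.89 and 0.73, mean 0.81 ± 0.20, adjusted p = 0.0174 by limma), STE18, the gamma subunit of the pheromone receptor's G protein (0.99 and 0.34, mean 0.67 ± 0.21, adjusted p = 0.048), and CIK1, a kinesin partner in karyogamy (0.64 and 0.48, mean 0.56 ± 0.08, adjusted p = 0.000982). The spots of KAR4 differed by 0.68 log2. Without replicate 1, KAR4 and STE18 were not called, nor were they without replicate 2. Once blocked by replicate, 6 genes of the list rose and 2 fell.

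Of 12 mating-type and alpha-specific genes, 4 rose and 1 fell. HMRA1 had log2 ratios of 1.20 and 0.88 (1.04 ± 0.12, adjusted p = 0.000501 by limma), HMRA2 had 0.65 and 1.20, HMLALPHA2 0.71 and 1.11, and MATALPHA2 0.81 and 0.98. These genes lie at the silent cassettes HMR and HML or at the mating-type locus. Copies of a gene in different cassettes are near-identical, so probes cannot tell them apart. The increases of HMRA2, HMLALPHA2 and MATALPHA2, which share sequence, are therefore not separate observations, while HMRA1 is a different gene. SAG1, the alpha-agglutinin gene of alpha cells, fell (-0.60 and -0.63, adjusted p = 0.00047 by limma), and was named after its value was seen. With the trend on gene length removed, HMRA2 and HMLALPHA2 were not called, at 0.62 and 0.75 (adjusted p = 0.303 and 0.091). With the replicate block as well, all 5 genes named from this list were called. Without replicate 1, and likewise without replicate 2, HMRA1, MATALPHA2 and SAG1 were called while HMRA2 and HMLALPHA2 were not.

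The arrest itself was examined through cell cycle genes, as far as ratios allow. Of 39 G1/S genes, targets of the factors SBF and MBF, 9 rose and 3 fell, with a median of 0.09. RAD27, the flap endonuclease (0.56 and 0.50), CLB6, an S-phase cyclin (0.48 and 0.57), SMC1 of cohesin (0.36 and 0.58) and PMS1 of mismatch repair (0.58 and 0.33) rose by 0.45 to 0.53 on average. CLB6 had the lowest adjusted p, 0.00047 by limma. The 3 that fell were the G1 cyclin gene CLN2 (-0.42), GIC1 (-0.40) and CTF4 (-0.23), named after their values were seen. The G1 cyclin genes CLN1 (0.38) and PCL1 (0.44) were among those that rose, and were also named after their values were seen. With replicate 1 left out, 4 genes of the list rose and 0 fell, and with replicate 2 left out, 4 rose and 1 fell. CTF4 was not called with the trend on gene length removed, but was with the replicate block as well.

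Of 24 genes of the mitotic CLB2 cluster, 3 rose and 2 fell, near the shares of 13.6% and 8.40% over all genes, with a median of 0.14. Beside SPO12, CLB1, a mitotic cyclin (0.46 and 0.72), and MYO1, the contractile ring myosin (0.47 and 0.57), rose. MOB1 (-0.45 and -0.48) and NUD1 (-0.39 on average) of the mitotic exit network fell, and NUD1 was named after its value was seen. Of 29 M/G1 genes, 2 rose and 2 fell, around a median of -0.01. DSE1 and DSE3, expressed in daughter cells, rose by 0.69 and 0.66, while the cell wall gene SUN4 and the replicative helicase gene MCM3 fell, to -0.55 and -0.36. Of the CLB2 cluster, 8 rose and 5 fell with the replicate block, and of the M/G1 genes 7 and 8, against 24.6% up and 19.2% down over all genes. Of the 9 genes named for these lists, 5 were called with replicate 1 left out and 3 with replicate 2 left out.

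Of 23 ribonucleotide reductase and damage-inducible genes, 4 rose and 1 fell, which is not far from the shares over all genes. The nuclease gene RAD2 (0.34 and 0.67), the photolyase gene PHR1 (0.37 and 0.55), the checkpoint kinase gene DUN1 (0.27 and 0.47) and the stress gene DDR2 (0.46 and 0.25) rose, all by 0.50 or less on average. RNR3, the inducible large subunit, fell, with -0.35 and -0.19 (-0.27 ± 0.08, adjusted p = 0.0295 by limma), and was named after its value was seen. DDR2 is very short, and with the trend on gene length removed it was at -0.07 (adjusted p = 0.866). When replicate 1 was left out, 1 of these 5 was called, and when replicate 2 was, 0 were.

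Genes of translesion synthesis, the error-tolerant copying of damaged DNA named in the title of the study, were counted next. Of 18 genes of translesion synthesis and PCNA modification, 2 rose and 1 fell, near the shares of 13.6% and 8.40% over all genes. ELG1, which unloads PCNA, had log2 ratios of 0.36 and 0.40 (0.38 ± 0.06, adjusted p = 0.00236 by limma), and POL32, a subunit of the polymerases delta and zeta, had 0.22 and 0.40. SIZ1, the ligase that attaches SUMO to PCNA, had -0.42 and -0.40 (-0.41 ± 0.06, adjusted p = 0.00156). POL32 was not called with either replicate left out or with the trend on gene length removed (0.28, adjusted p = 0.0636), and ELG1 was not called without replicate 2 (adjusted p = 0.0522). With the replicate block 6 genes of the list rose and 2 fell. With the trend on gene length removed as well, POL32 was called (adjusted p = 0.0192 by limma).

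The translesion polymerase genes themselves were not called. REV1 had log2 ratios of 0.23 and -0.20, REV3, the catalytic subunit of polymerase zeta, 0.20 and 0.42, REV7, its partner, 0.15 and 0.23, and RAD30, polymerase eta, -0.02 and 0.45. Their adjusted p lay between 0.156 and 0.972 by limma. With the replicate block, REV3 (0.31, adjusted p = 0.00213) and RAD30 (0.21, adjusted p = 0.0176) were called. In untreated S, REV7 was at -0.77, and its G1 minus S difference was 0.96 (adjusted p = 0.000331 by limma). REV3 differed by 0.90 in the same contrast (adjusted p = 0.0116).

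In the lists of ribosome-building genes more members rose than fell. Of 84 ribosome biogenesis genes, which act in the nucleolus to process ribosomal RNA and assemble subunits, 27 rose and 2 fell, with a median of 0.33. In the blocked fit 42 rose and 6 fell. Leaving out replicate 1, 14 rose and 1 fell, and leaving out replicate 2, 9 rose and 0 fell. NOP15 (1.35 and 0.75), EBP2 (0.94 and 0.77) and MAK16 (0.93 and 0.74) of the large subunit pathway and NOP14 of the small subunit pathway (0.64 and 0.95) rose most. EBP2 averaged 0.85 ± 0.09 (adjusted p = 0.000467 by limma). The 2 that fell, named after their values were seen, were UTP10 (-0.47) and UTP15 (-0.31), both of the small subunit processome.

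Of 35 genes of RNA polymerases I and III and their factors, 8 rose and 2 fell, with a median of 0.22. The polymerase III initiation factor genes BDP1 (0.52 and 0.87) and BRF1 (0.46 and 0.58), the polymerase I subunit gene RPA34 (0.40 and 0.82) and the polymerase I factor gene RRN9 (0.49 and 0.62) rose by 0.52 to 0.70 on average. RRN7 (-0.45) and TFC6 (-0.23), of the polymerase I and III machineries, fell and were named after their values were seen. Under the replicate block 13 genes of this list rose and 4 fell, and with replicate 1 or replicate 2 left out, 3 or 2 rose. RPA34 (0.47) and TFC6 were not called with the trend on gene length removed.

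Of 63 mitochondrial ribosomal protein genes, 26 rose and 2 fell, with medians of 0.44 on array 1, 0.32 on array 2 and 0.38 for the mean. MRPL24 had log2 ratios of 1.13 and 1.04 (1.08 ± 0.14, adjusted p = 0.000729 by limma), MRPS28 had 0.78 and 1.25, RSM18 0.74 and 1.08, and RSM28 0.96 and 0.71. MRPL4 (-0.50) and RSM7 (-0.37) fell and were named after their values were seen. Without replicate 1, 13 genes of the list rose, and without replicate 2, 11 did. The list held short genes, with a median length of 717 bp against 1338 bp for all genes. With the trend on gene length removed 14 rose and 4 fell, and RSM18 was not called (0.64, adjusted p = 0.208). With the replicate block as well, 24 rose and 8 fell, and RSM18 was called (adjusted p = 0.00628 by limma).

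Cytosolic ribosomal protein genes, a known set of NuA4 targets, gave no call in this fit and had opposite signs in the 2 dye orientations. Their median over 136 genes was 1.76 on array 1, where the mutant carried Cy5, and -0.57 on array 2, where it carried Cy3, for a mean log2 ratio with median 0.57. Before any dye effect was taken out, the arrays thus disagreed in direction. RPL34B had 2.50 on array 1 and 0.11 on array 2, and RPS26B had 2.49 and 0.10, so that even these members with the highest means were near 0 on array 2 (adjusted p = 0.304 and 0.256 by limma). With the replicate block, which takes out a dye effect common to the comparisons, 70 of the 136 were called up and 5 down. Over all genes the shares in that fit were 24.6% up and 19.2% down. With the trend on gene length removed as well, 55 of the 136 were called up and 7 down. The dye term of that fit, estimated over all 16 arrays, had a median of 1.03 log2 in these genes, against -0.0007 over all genes. It was called for 2169 of the 4073 genes. In untreated S, their median was -0.21. Nuclear genes of the respiratory chain and ATP synthase split the same way, with medians of 0.79 and -0.12 over 43 genes, of which 2 rose: COX5B (0.94 and 0.46) and CYC7 (0.68 and 0.42). With the replicate block 10 of the 43 rose and 2 fell. With the trend on gene length removed as well, COX5B and CYC7 were both called. COX5B was not called without replicate 1 (adjusted p = 0.215), and CYC7 was not called with the trend on gene length removed (0.24, adjusted p = 0.161).

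**Figure D3:**
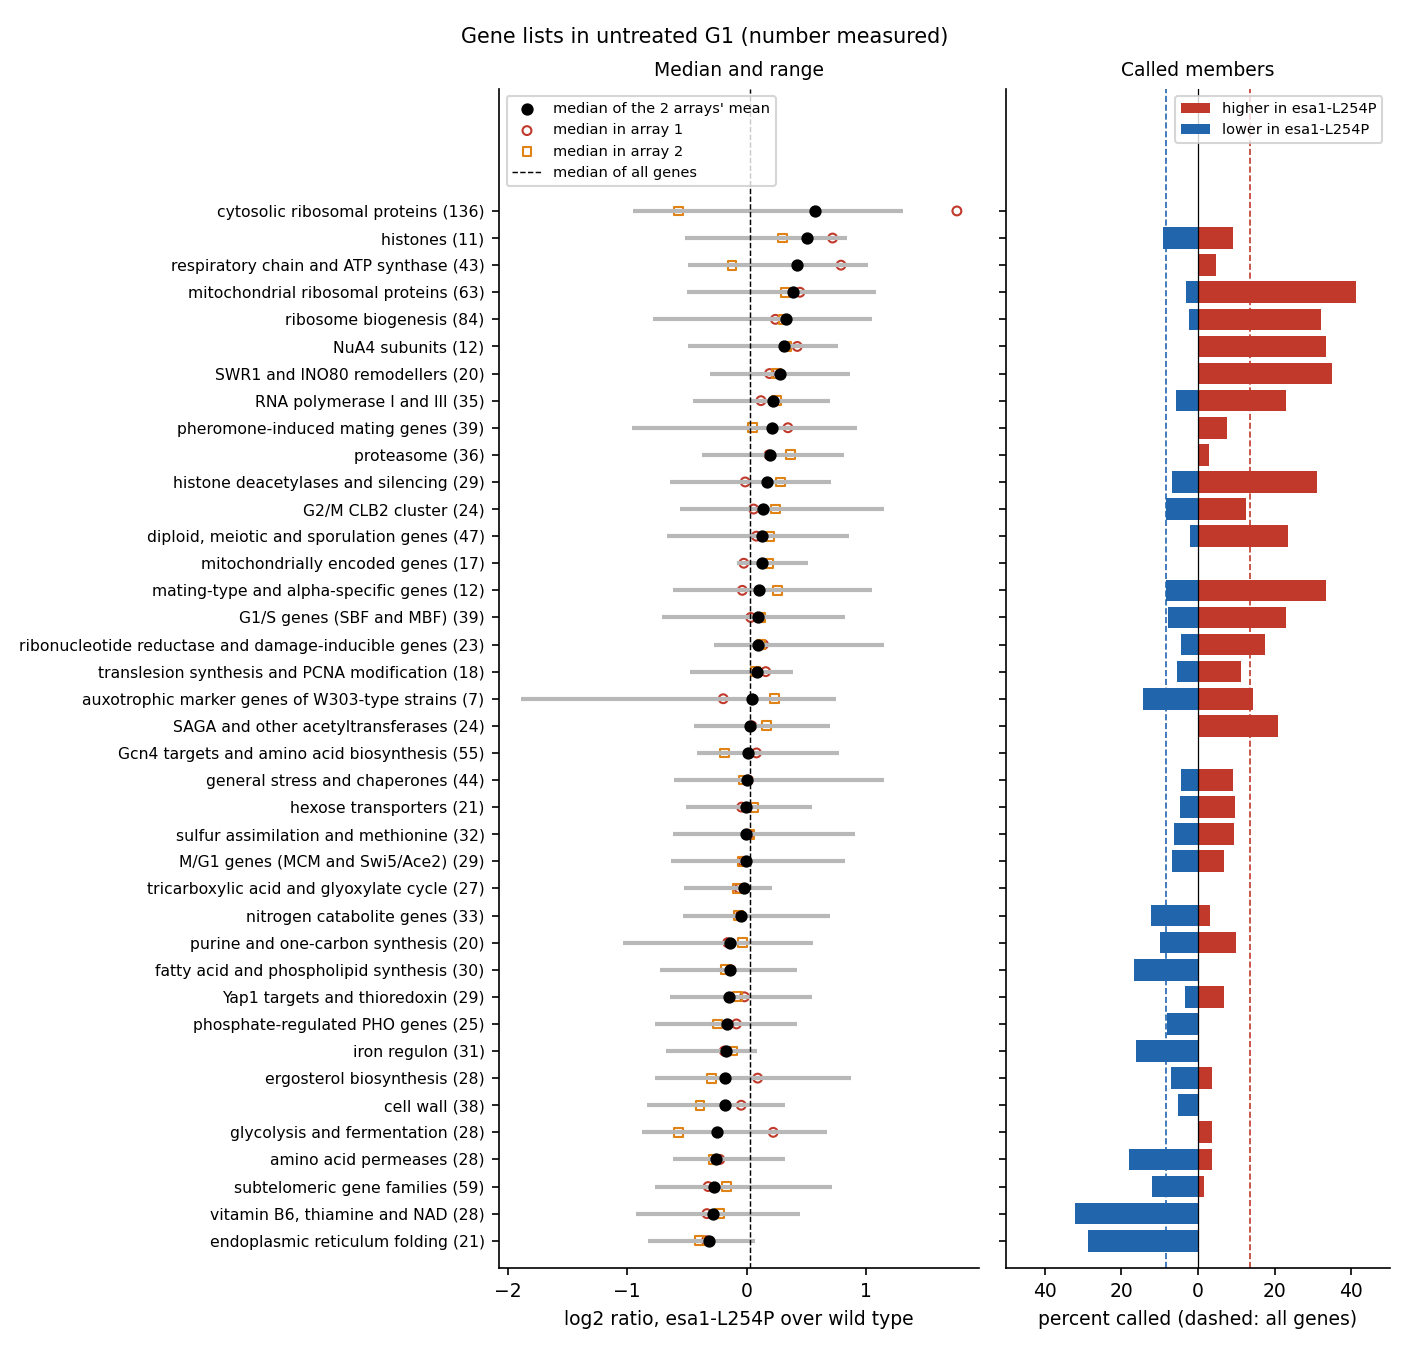
Left, median log2 ratio of esa1-L254P over wild type in untreated G1 for each gene list (filled circles), with the medians of arrays 1 and 2 (open symbols) and the lowest to highest member (grey lines). Right, percent of members called higher (right of 0) or lower (left of 0), with dashed lines at the share over all genes. Of mitochondrial ribosomal genes 26 of 63 rose and of ribosome biogenesis genes 27 of 84, with medians alike on both arrays. With the trend on gene length removed, 14 and 25 rose.

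In several lists of nutrient uptake, cofactor synthesis and the secretory pathway more members fell than rose. Of 28 genes of vitamin B6, thiamine and NAD synthesis, 9 fell and 0 rose, against 8.40% of all genes that fell, with a median of -0.28. BNA5 had log2 ratios of -0.99 and -0.87 (-0.93 ± 0.17, adjusted p = 0.00381 by limma), and NMA1, which forms NAD from its mononucleotide, -0.86 and -0.63 (-0.74 ± 0.12, adjusted p = 0.00183). The vitamin B6 genes SNZ2 (-0.49 and -0.73) and SNZ3 (-0.56 and -0.60) are close copies whose signals can be shared. Once blocked by replicate, 13 fell. With replicate 1 left out, 3 did, and with replicate 2 left out, 4.

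The subtelomeric gene families held 1 gene that rose and 7 that fell among 59 measured, with a median of -0.28, and 51 of the 59 were below 0. The fallen members were AAD4, an aryl-alcohol dehydrogenase homologue (-0.71 and -0.58), SNZ2, SNZ3 and 4 PAU genes, whose near-identical sequences can share signal. ARR2, an arsenate reductase gene, rose (0.60 and 0.81), and was not called with the trend on gene length removed (0.43, adjusted p = 0.222). With the replicate block 2 rose and 30 fell. Leaving out replicate 1, 1 rose and 4 fell, and leaving out replicate 2, 0 rose and 3 fell. By position in the RefSeq R64 gene table, the first 10 genes from each chromosome end included 147 measured genes, of which 10 rose and 23 fell, with a median of -0.19. Genes 11 to 20 from an end had a median of -0.04 over 196 genes, with 23 up and 19 down, and genes further in had 0.04 over 3705 genes, with 521 up and 300 down.

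Of 28 amino acid permease genes and their regulators, 1 rose and 5 fell, with a median of -0.26 and 14 falling with the replicate block. MMP1, a permease of S-methylmethionine, had log2 ratios of -0.66 and -0.57 (-0.61 ± 0.11, adjusted p = 0.00413 by limma), MEP3, an ammonium permease, -0.71 and -0.37, AGP2 -0.68 and -0.33 and AGP3 -0.47 and -0.31. The gene that rose was the regulator STP2 (0.22, adjusted p = 0.0446), named after its value was seen. Without replicate 1, 0 genes of this list were called, and without replicate 2, 2 fell.

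Of 31 genes of the iron regulon, 5 fell and 0 rose, with a median of -0.17. They were the cell wall siderophore-retention genes FIT1 (-0.71 and -0.65) and FIT3 (-0.62 and -0.56), the reductase genes FRE3 (-0.63 and -0.47) and FRE2 (-0.27 on average, named after its value was seen) and the siderophore transporter gene ARN1 (-0.38 and -0.45). FIT1 averaged -0.68 ± 0.11 (adjusted p = 0.00231 by limma). In the blocked fit 7 of the 31 genes fell and 0 rose, against 19.2% of all genes that fell there. When replicate 1 was left out, 1 of the 5 was called, and when replicate 2 was, 2 were. In untreated S, ARN1 and FIT3 were at 0.93 and 1.05, and the G1 minus S differences were -1.35 and -1.64 (adjusted p = 5.76e-05 and 5.49e-05 by limma).

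Endoplasmic reticulum folding genes formed the list with the lowest median, -0.32 over 21 genes, of which 20 lay below 0. Of these 6 fell and 0 rose, and 10 fell with the replicate block. HAC1, the transcription factor of the unfolded protein response, had log2 ratios of -0.76 and -0.50 (-0.63 ± 0.14, adjusted p = 0.00899 by limma). The chaperone gene SCJ1 had -0.61 and -0.57, the disulfide isomerase gene MPD1 -0.51 and -0.50, and the ubiquitin ligase gene HRD1, which acts in degradation of misfolded proteins, -0.54 and -0.47. With replicate 1 left out, 1 of the 6 was called, and with replicate 2 left out, 3 were.

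Of 30 fatty acid and phospholipid genes, 5 fell and 0 rose, with a median of -0.14. INO1, which forms inositol phosphate (-0.89 and -0.56, mean -0.73 ± 0.13, adjusted p = 0.00367 by limma), the inositol transporter gene ITR1 (-0.75 and -0.30), and EPT1 (-0.69) and PSD1 (-0.41) of phospholipid synthesis were among them. In the blocked fit 7 of the 30 genes fell and 2 rose, against 19.2% down and 24.6% up over all genes. Of 28 ergosterol genes 2 fell, NCP1 (-0.77, with spots that differed by 0.53) and HMG2 (-0.43), and 1 rose, HES1 (0.81 and 0.93), an oxysterol-binding protein homologue. Of 25 phosphate-regulated genes 2 fell, GIT1, a glycerophosphoinositol permease (-0.89 and -0.61), and PHM7 (-0.61 and -0.52). Of 38 cell wall genes 2 fell, the mannoprotein genes DAN4 (-0.88 and -0.79) and TIR3 (-0.48 and -0.45). With the replicate block 8 of the 38 fell, near the 19.2% over all genes. In the ergosterol, phosphate and cell wall lists the share that fell without the block was no higher than the 8.40% over all genes. Of the 11 genes named for these 4 lists, 3 were called with replicate 1 left out and 7 with replicate 2 left out.

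Of 33 nitrogen catabolite genes, 1 rose and 4 fell. The activators GAT1 (-0.41 and -0.57) and UGA3 (-0.71 and -0.25) fell and the repressor DAL80 (0.37 and 0.66) rose. Of 32 sulfur genes, 3 rose and 2 fell: MET16, a reductase of sulfate assimilation (0.71 and 1.10), whose spots differed by 1.25 log2, and MET32, a transcription factor (0.63 and 0.75), rose, and MET13, a methylenetetrahydrofolate reductase (-0.59 and -0.55), fell. Of 20 genes of purine and folate-linked metabolism, 2 rose, the transcription factor gene BAS1 (0.31) and the dehydrogenase gene MTD1 (0.56), and 2 fell, IMD2 and ADE3 (-0.55, with spots that differed by 0.53). Of these 10 named genes, 2 were called with replicate 1 left out and 5 with replicate 2 left out. DAL80 (0.42) and ADE3 (-0.53) were not called with the trend on gene length removed. Both were called with the replicate block as well.

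Several large metabolic groups gave few calls or none. Of 55 Gcn4 targets and amino acid synthesis genes 0 were called, with ARG4 at 1.48 and 0.05 and ASN1 at 1.34 and 0.06 as the members furthest from 0. Of 27 genes of the tricarboxylic acid cycle and of 17 mitochondrially encoded genes 0 were called as well. With the replicate block 3 of the tricarboxylic acid cycle genes fell and 3 of the mitochondrially encoded genes rose. Of 28 glycolysis and fermentation genes 1 rose, GPM2, a phosphoglycerate mutase homologue (0.56 and 0.78), while the list's medians were 0.22 on array 1 and -0.58 on array 2. Of 21 hexose transporter genes and regulators, the regulator MTH1 (0.45 and 0.64) and HXT6 (0.46 and 0.52) rose and HXT2 (-0.33 and -0.41) fell. Of these 4 genes, 1 was called with replicate 1 left out and 0 with replicate 2 left out.

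Stress genes showed no common direction. Of 44 general stress and chaperone genes, 4 rose and 2 fell, around a median of 0.00. HSP12, a membrane-protecting stress protein (0.98 and 0.66, mean 0.82 ± 0.16, adjusted p = 0.00627 by limma), HSP26, a small heat shock protein (0.70 and 0.61), and GPH1, glycogen phosphorylase (0.47 and 0.42), rose, and GND2 (-0.41 and -0.51) fell. HSP26 was not called with the trend on gene length removed (0.50, adjusted p = 0.101). Of 36 proteasome genes 1 rose, RPN5 (0.93 and 0.69), although 29 lay above 0. Of 29 Yap1 targets, the oxidoreductase genes OYE3 (0.52 and 0.39) and LOT6 (0.36 and 0.42) rose and AAD4 fell. LOT6 was not called with the trend on gene length removed (0.20, adjusted p = 0.185). With the replicate block as well, HSP26 and LOT6 were both called. Of the 8 genes named here, 1 was called with replicate 1 left out and 4 with replicate 2 left out.

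Of 47 diploid, meiotic and sporulation genes, which haploid cells in rich medium normally keep low, 11 rose and 1 fell, with a median of 0.13. SSP1 (0.78 and 0.92) and SPO21 (0.54 and 0.90), which build the spore membrane, and ZIP1 of the synaptonemal complex (0.56 and 0.69) rose, and SPR6 (-0.61 and -0.72) fell. SSP1 averaged 0.85 ± 0.09 (adjusted p = 0.00047 by limma). In the blocked fit 21 rose and 6 fell. Without replicate 1, 8 rose and 1 fell, and without replicate 2, 4 rose and 1 fell.

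The effect of the allele in G1 was set against its effect in S. The difference between the log2 ratio in untreated G1 and that in untreated S was called for 1377 genes, 33.8% of those tested (792 above 0, 585 below). In S itself 21.5% of genes were called, 374 up (9.18%) and 501 down (12.3%). Of the 555 genes that rose in G1, 346 were among the 501 that fell in S and 8 among the 374 that rose there. Of the 342 that fell in G1, 149 were among the 374 that rose in S and 12 among the 501 that fell there. Across all genes the 2 sets of ratios, which come from separate arrays, correlated at -0.63 (Spearman -0.66). Under the replicate block 2208 genes were called in the difference.

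**Figure D4:**
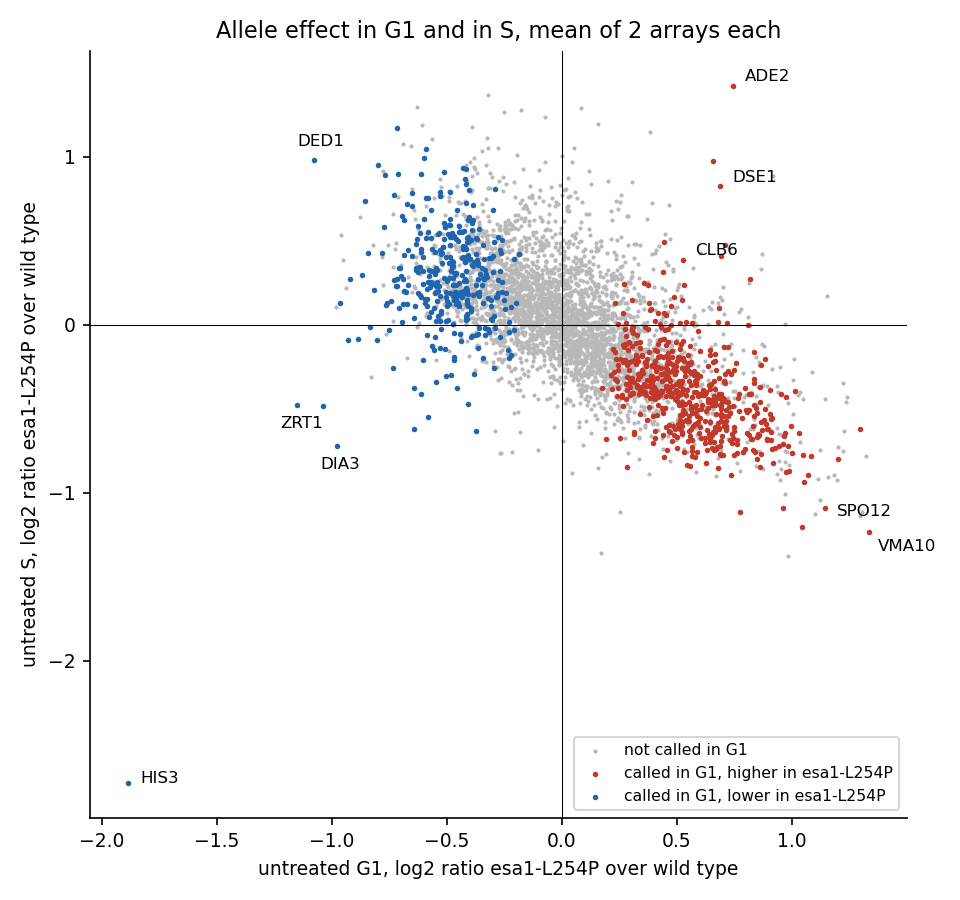
Each point is a gene, with its mean log2 ratio of esa1-L254P over wild type in untreated G1 (horizontal) against untreated S (vertical). Genes that rose in G1 mostly lie below 0 in S and those that fell mostly above 0, with HIS3, ADE2, DSE1, CLB6, ZRT1 and DIA3 as named exceptions.

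All 15 genes with the largest increases in G1 were below 0 in S, and 13 of them were called down there. VMA10 was at 1.34 in G1 and -1.23 in S, a difference of 2.57 (limma contrast, adjusted p = 0.000987). HMRA1 was at 1.04 in G1 and -1.20 in S, a difference of 2.25 (adjusted p = 3.57e-05). FYV6, chosen for this contrast, had 0.96 on both G1 arrays and a mean of -1.09 in S (difference 2.05, adjusted p = 1.49e-05). These genes were chosen by their G1 ratio, and FYV6 by the difference itself, so the contrast is not independent of the choice.

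The genes that fell most in G1 were less uniform. Of the 15, 7 were above 0 in S, and 12 passed the test of the difference. DED1 was at -1.08 in G1 and 0.98 in S (difference -2.06, adjusted p = 0.000708 by limma). SRO9, a paralogue of SLF1, was at -0.80 in G1 and 0.95 in S (difference -1.75, adjusted p = 4.47e-05), whereas SLF1 was at 1.30 in G1 and, without being called, at -0.62 in S (adjusted p = 0.12). HIS3 (difference 0.84, adjusted p = 0.0594) and DIA3 (-0.26, adjusted p = 0.387) did not pass the test of the difference.

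A few genes rose in both phases. DSE1 was at 0.69 in G1 and 0.82 in S, HSP26 at 0.66 and 0.97, GPH1 at 0.44 and 0.49 and CLB6 at 0.53 and 0.39, and their G1 minus S differences were not called (adjusted p from 0.232 to 0.813 by limma). SNZ2 and SNZ3 fell in both, at -0.61 and -0.58 in G1 and -0.41 and -0.55 in S.

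The difference from MMS-treated G1 cells was tested in the same way. It was called for 1078 genes, 26.5% of those tested, of which 612 were above 0 and 466 below. Once blocked by replicate, 2038 were called. When replicate 1 was left out, 595 were, and when replicate 2 was, 650. All 15 genes with the largest increases passed this test, and 8 of the 15 with the largest decreases, but they were chosen by their untreated G1 ratio, which enters it. VMA10 was at 1.34 without MMS and -0.48 with it (difference 1.82, adjusted p = 0.009 by limma), and HMRA1 at 1.04 without MMS and -0.71 with it (difference 1.75, adjusted p = 0.000179).

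In the other direction, DHH1, a helicase of mRNA decapping, had log2 ratios of -1.18 and -0.38 without MMS, was not called there (adjusted p = 0.0669 by limma), and was at 1.33 with MMS (difference -2.11, adjusted p = 0.0034). SPE1, ornithine decarboxylase, differed by -1.79 (adjusted p = 0.0137), and the mitochondrial gene OLI1, an ATP synthase subunit, by -1.65 (adjusted p = 0.000377). In MMS-treated G1 10.5% of genes were called, 5.38% up and 5.13% down.

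The direct ratio was also set against the path around the other 6 G1 arrays, which is the MMS response of wild type plus the strain difference in MMS minus the MMS response of esa1-L254P. These arrays may hold RNA of the same preparations. Of the 555 genes that rose, 553 were above 0 on this path, and all 342 that fell were below 0. These genes were chosen by their direct ratio, and the share with the same sign over all genes was not counted. The path had larger errors, and 145 genes were called on it (3.56%; 90 up and 55 down). ESA1 was at 0.83, HIS3 at -2.65, VMA10 at 1.39 and ZRT1 at -1.41. In the test of the direct minus the indirect value limma called 0 genes, with 11 at an unadjusted p under 0.05. With the replicate block these counts were 0 and 66. The median standard error of the unblocked test was 0.29, against a median absolute difference of 0.11. The test could thus hardly call a gene, and 0 calls does not show that the 2 values agree.

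Gene length moved with the ratio. The median length was 1165.5 bp for genes that rose and 1603.5 bp for genes that fell, against 1338 bp for all genes, with lengths from the RefSeq R64 gene table. With genes ordered by length in 10 groups, the group of the shortest genes, 78 to 534 bp, had a median log2 ratio of 0.30, with 76 genes up and 11 down, and the group of the longest had -0.05, with 36 up and 36 down. On array 1 the medians of these groups were 0.51 and -0.09, and on array 2 they were 0.10 and -0.02. The correlation of the ratio with log10 length across genes was -0.37 on array 1, -0.02 on array 2 and -0.28 for their mean. On the path around the other G1 arrays it was -0.30, with medians of 0.36 in the shortest group and -0.06 in the longest. For the dye term of the blocked fit the correlation with log10 length was -0.32. For the ratio in untreated S it was 0.12, and in MMS-treated G1 0.25. With a smooth trend on length removed, 462 genes rose (11.4%) and 346 fell (8.51%), of which 721 were among the 897. Of the 30 genes with the largest changes PMT3 alone was lost, and it was called with the replicate block as well. The part of RNA quality or labelling in this trend was not tested.

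**Figure D5:**
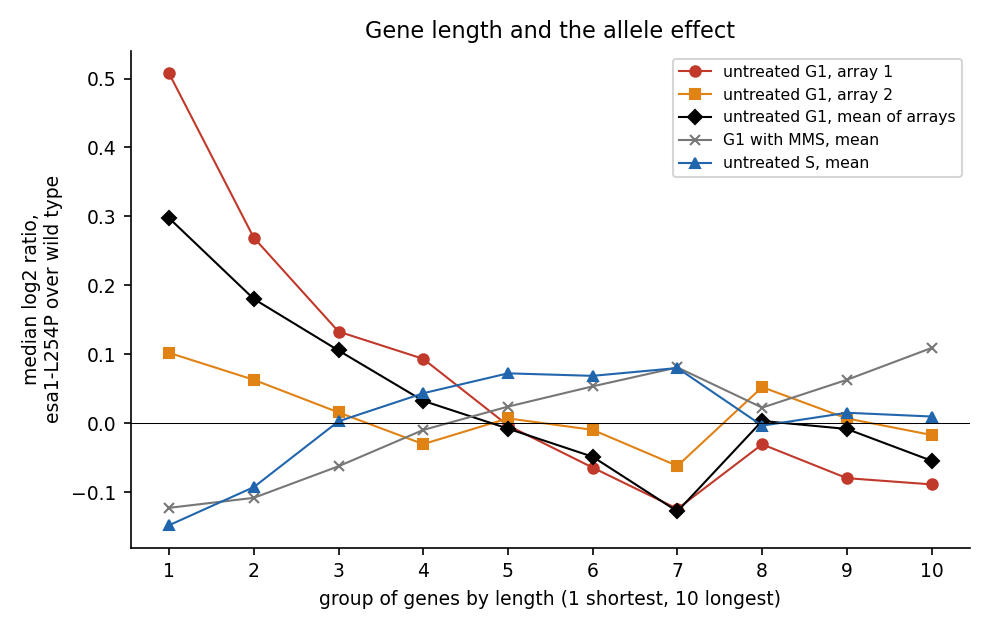
Median log2 ratio of esa1-L254P over wild type in 10 groups of genes ordered by length, for each array of untreated G1, their mean, MMS-treated G1 and untreated S. In untreated G1 the ratio is highest in the shortest genes and more so on array 1, while in the other 2 comparisons the shortest genes lie below 0.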

How the data were processed

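RNA of 16 dual-colour arrays (8 comparisons, 2 arrays each with the dyes exchanged, per the labels) was analysed from the value table the authors deposited. The deposited values are log2 ratios only by assumption, since the log base is not stated, and were taken as Cy5 over Cy3. The tools named are limma 3.0 and R 3.1.1, per the submitters' processing notes. How background was corrected and arrays were normalized is not given in the sources used here. Each array was centred on its median, and no other scaling was applied between arrays.

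The order of the 15744 rows was found by scoring 15552 systematic orderings on 2036 genes for how well spots of the same gene matched. The best ordering scored 1.1152, against 0.0336 for the runner-up and 0.0346 for the best with shuffled genes. In the other 2036 genes duplicate spots then correlated at 0.683 to 0.949 over the 16 arrays, against -0.0324 to 0.0273 when read by number. Spots without a gene symbol (7592) were left out, and 8152 with 1 symbol were kept. Symbols were checked against the RefSeq R64 gene table (3940 current, 125 updated, 8 kept as given), which also gave lengths, chromosomes and neighbours. No coordinates are given, because the build of the files is not stated.

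Gene means over spots were fitted with limma 3.58.1 in R 4.3.3 (lmFit, eBayes, Benjamini-Hochberg adjusted p under 0.05), with 1 coefficient per comparison over all 16 arrays. The script was tested on simulated data with known changes. Replicate numbers pair the arrays by dye orientation: over 28 pairs of comparisons, same-numbered arrays deviated together, with correlations of 0.619 to 0.892 (median 0.792). The alternatives comprised that block, 1 spot per gene, other sets of arrays, scaling, 1 array left out and, added after the data were seen, removal of a loess trend on gene length.

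The gene lists (39) and the comparison were chosen with earlier results of these data known. An RNase P gene and a nuclear pore gene caught by symbol were taken off the ribosomal protein and cell wall lists after values were seen. Genes are named by rule: ESA1, its neighbours, marker and translesion genes, the 15 largest called changes per direction with agreeing arrays and with spots within 0.5 of each other, up to 4 called members per list (2 by size where none was called), and the 6 largest differences from S and from MMS per direction. Others are said to be named after their values were seen. The number of arrays limits the precision.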

Additional observations from a re-analysis of the deposited data

Results flagged for a closer look

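The ratio of esa1-L254P over wild type in untreated G1 differed from that in untreated S, by limma's contrast with a Benjamini-Hochberg adjusted p under 0.05, for all 15 genes with the largest increases in G1. These genes, and those with the largest decreases below, were chosen by their G1 ratio, which enters the contrast. The contrast is therefore not independent of the choice. The G1 minus S differences in log2 ratio were 2.57 for VMA10, 1.92 for SLF1, 2.00 for SNF7, 2.23 for SPO12 and 1.87 for MRPL24. They were 1.97 for VPS20, 1.99 for SRP21, 1.83 for NOP15, 2.25 for HMRA1 and 1.68 for BUR6. They were 1.41 for MRPS28, 1.77 for FMC1, 1.60 for CWC15, 1.86 for VMA22 and 1.71 for DID2. FYV6, chosen for this contrast, differed by 2.05.

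Among the genes with the largest decreases the same contrast gave -2.06 for DED1, -1.59 for SDS23, -1.27 for SCH9, -1.20 for PPH22 and -1.17 for PMT2. It gave -1.10 for MCD4, -1.03 for PMT3, -0.84 for BNA5, -0.82 for DAN4 and -0.80 for FCY21. It gave -0.71 for AUS1 and -0.68 for ZRT1. In untreated S, ZRT1 was called down, at -0.48, while BNA5, DAN4, FCY21 and AUS1 lay between -0.09 and -0.01 and were not called. The genes chosen for the most negative differences beside DED1 were COS10 (-1.93), RGM1 (-1.89), WHI3 (-1.76), SRO9 (-1.75) and HCM1 (-1.72), of which RGM1 and SRO9 were called in G1 itself.

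The difference was also called for ESA1 (0.58), REV3 (0.90), REV7 (0.96) and ADE2 (-0.68). REV3 and REV7 were not called in untreated G1, and ADE2 was higher in esa1-L254P in both phases.

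Between untreated and MMS-treated G1 cells, the difference in log2 ratio was 1.82 for VMA10, 1.77 for SLF1, 1.75 for HMRA1, 1.73 for NOP15 and 1.67 for SRP21. These genes and the others of this paragraph were chosen by the difference itself. LOC1, a protein of ribosome assembly and mRNA localization, differed by 1.69. Negative differences were -2.11 for DHH1, -1.90 for DED1 and -1.79 for SPE1. They were -1.75 for AI5_ALPHA, an intron-encoded mitochondrial reading frame, -1.65 for OLI1 and -1.65 for IDP1, mitochondrial isocitrate dehydrogenase.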

How the results depend on the processing

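With dye orientation as a replicate block, the genes called in untreated G1 numbered 1784 (1003 up, 781 down), list members 504, the differences from S 2208 and from MMS-treated G1 2038. With the trend on gene length removed as well these counts were 1720 (885 up, 835 down), 476, 2146 and 1968. The second spot of each gene alone gave 574 (368 up, 206 down), and the G1 arrays alone 552 (330 up, 222 down), with 681 for the difference from MMS. With 1 replicate left out the calls numbered 317 to 328 (205 to 238 up, 90 to 112 down), the differences from MMS 595 to 650, the called genes among those named by rule 69 to 75 (139 with all arrays) and list members 86 to 94 (216 with all arrays). From the 2 arrays alone limma called 0 genes, those named by rule included, with 859 at an unadjusted p under 0.05, and from the other 6 G1 arrays alone 0, with 435. Fewer arrays leave fewer residual degrees of freedom; the cause of the other shifts was not tested. No centring, scaling, the first spot, discordant spots left out, a robust eBayes fit, the loop fit and the length trend alone kept the count of called genes within 1.5 times.

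Of the genes named by rule, DDR2 was the called one that changed sign, at -0.075 with the length trend removed, with or without the block. The others that did so were not called: DGA1 (-0.0064 by the second spot, -0.037 to 0.11 without a replicate), URA3 (-0.10 by the first spot, -0.27 to 0.36 without a replicate, -0.0032 in the loop fit, -0.15 on the indirect path, -0.054 with the length trend removed), CAN1 (-0.050 on the indirect path), HO (-0.053 to 0.11 without a replicate), REV1 (-0.0085 by the second spot, -0.20 to 0.23 without a replicate), RAD30 (-0.025 to 0.45), AI4 (-0.28 to 1.30) and AI5_BETA (-0.096 to 1.00) without a replicate, and OLI1 (-0.20 with the length trend removed). The block ended no call in untreated G1. With 2 arrays and no intensities, changes of low-signal genes cannot be judged.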

Other observations

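By chromosome, the median log2 ratio of esa1-L254P over wild type in untreated G1 ran from -0.14 on chromosome III (107 genes, 14 up and 13 down) to 0.10 on chromosome IV (547 genes, 88 up and 37 down). In untreated S the medians of these chromosomes were 0.13 and -0.05. The mitochondrially encoded reading frames AI4 and AI5_BETA had ratios of opposite sign on arrays 1 and 2, -0.28 and 1.30 for AI4 and -0.10 and 1.00 for AI5_BETA. They were called with the replicate block (limma, adjusted p = 0.00177 and 0.0178).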
